A study of Mus musculus with 21 samples.

Results

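Matrix metalloproteinases (MMPs) and the tissue inhibitors of metalloproteinases (TIMPs) were examined in mouse heart RNA with and without the receptor Notch3. The 10 genes were 6 that encode MMPs (Mmp2, Mmp3, Mmp9, Mmp14, Mmp15 and Mmp19) and 4 that encode TIMPs (Timp1, Timp2, Timp3 and Timp4). They were taken by name, and all 10 were found among the 46517 Ensembl genes of the counts table. Heart tissue from the left ventricle of 4 control (Notch3 +/+) mice and 3 Notch3-/- mice was analysed by bulk RNA-sequencing, with 3 technical libraries from each mouse. All mice were on the C57BL/6J background and 10 to 14 months old, and their sex was not given in the sources used here. The Notch3-/- mice carry a lacZ reporter inserted into the Notch3 gene in every cell, so the loss was neither induced in the adult nor limited to a cell type. Control mice 1 and 2 had labels starting with X, and control mice 3 and 4 and all 3 Notch3-/- mice had labels starting with k. The X-labelled mice were thus of a single genotype, and label and genotype can be separated only among the 5 k-labelled mice.

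MMPs are zinc-dependent proteases that cut collagens, elastin and other proteins of the extracellular matrix, and most are made as inactive precursors that another protease must open. TIMPs bind the active site of MMPs and block it, and in the heart the balance between the proteases and their inhibitors is a known determinant of collagen turnover after injury or pressure load. Notch3 is a receptor of vascular smooth muscle cells and pericytes, the mural cells of blood vessels.

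Between 3046326 and 4638786 reads were counted per control mouse and between 3828763 and 5167869 per Notch3-/- mouse after the libraries of a mouse were summed. Values are CPM (counts per 1000000) scaled with TMM factors, which equalise the bulk of genes between mice, with SD over mice. Notch3 itself, the targeted gene, had 174, 200, 245 and 185 counts in control mice 1 to 4, against 22, 36 and 25 in Notch3-/- mice 1 to 3. All 3 Notch3-/- mice lay below all 4 control mice, as their labels say. Its log2 fold change, Notch3-/- against control, was -3.16 ± 0.23 (SE, adjusted p = 0.00173, edgeR's quasi-likelihood test), and it was lower in 3 of 3 Notch3-/- mice. The tissue label was checked with a list of 10 cardiomyocyte genes. All 10 had counts in every mouse, and their summed level was 22201 to 30980 CPM in control mice and 20138 to 30525 CPM in Notch3-/- mice. RNA typical of liver was also present, and it was high in Notch3-/- mice 1 and 2, as given below beside the genes it moved with.

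Levels of different genes were compared as CPM per kb of exon. Timp3 and Mmp2 were the most abundant members, with a mean over the 7 mice of 41.2 and 36.9 CPM per kb. Timp2 (17.4), Mmp15 (16.4) and Timp4 (11.5 CPM per kb) followed. The mean levels of Mmp3, Timp1, Mmp19, Mmp14 and Mmp9 were 5.87, 5.54, 3.50, 2.83 and 1.44 CPM per kb. In this order the only neighbours whose ranges over the 7 mice were separate were Mmp2, at 34.7 to 39.8 CPM per kb, and Timp2, at 13.9 to 23.7. All other neighbours overlapped. On this scale Timp3 exceeded Mmp2 in 4 of 7 mice and Mmp3 exceeded Timp1 in 4 of 7. Mmp19 exceeded Mmp14 in only 3 of 7 mice, and its median was lower, at 2.52 against 2.86 CPM per kb. The highest Mmp19 level, 9.76 CPM per kb, was that of Notch3-/- mouse 2. The length used matters for some of this. With the longest transcript as the length, Timp3, at 48.4 to 120.3 CPM per kb, lay above Mmp2, at 38.0 to 43.5, in all 7 mice, with means of 71.1 and 40.5. The mean of Mmp14 became 5.21, so that Mmp19 and Mmp14 changed places, and the other 8 members kept their rank. The smallest counts were those of Mmp9, which had 0 to 28 counts in a single library, and Timp1, which had 1 to 18. The members were far from the densest genes of the table: Timp3 reached 0.15 counts per exon base in a library, against 1.97 for the densest gene of at least 200 exon bases.

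**Figure D1:**
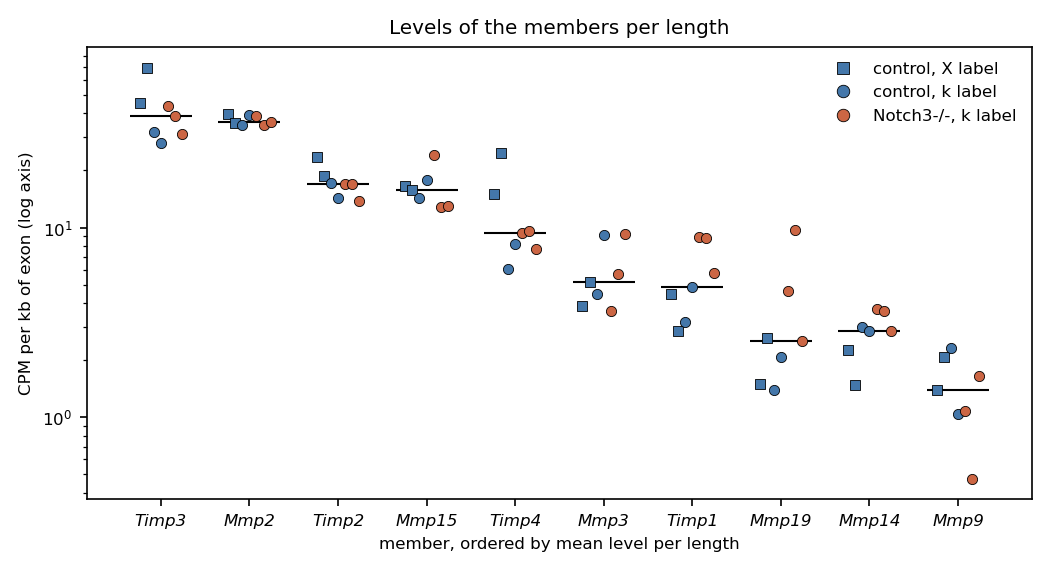
Level of each member in each mouse as CPM per kb of exon, on a log axis, with a line at the median of the 7 mice; squares are X-labelled and circles k-labelled mice. Timp3 and Mmp2 lie at the top and Mmp9, with a mean of 1.44, at the bottom.

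The question of the design was which genes differ between Notch3-/- and control hearts. None of the 10 members passed an FDR of 0.05 with a fold change of at least 1.5 in edgeR, where 1 of 14324 genes tested (0.00698%) did, Notch3. DESeq2, the package that the study used, was run as an alternative at the same thresholds. It called 1 member, Mmp19, among 593 of the 17571 genes that it gave an adjusted p (3.37%). With limma-voom on the 7 mice, 0 members and 1 of 14324 genes (0.00698%) were called. At an unadjusted p under 0.05, 2 of the 10 members, Mmp19 and Timp1, were higher in Notch3-/- hearts, against 7.34% of all genes tested in that direction. In the other direction 0 members and 3.05% of genes passed the same threshold. In 1 member, Timp1, all 3 Notch3-/- mice lay above all 4 control mice, which was so for 4.57% of genes tested, and in 0 members did they lie below (3.96% of genes). Counts this small were not tested against these shares. The members as a group had a median log2 fold change of 0.01, next to -0.0028 for all genes tested, with 5 of 10 above 0. In bulk tissue, fewer cells of a type and less RNA per cell cannot be told apart.

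**Figure D2:**
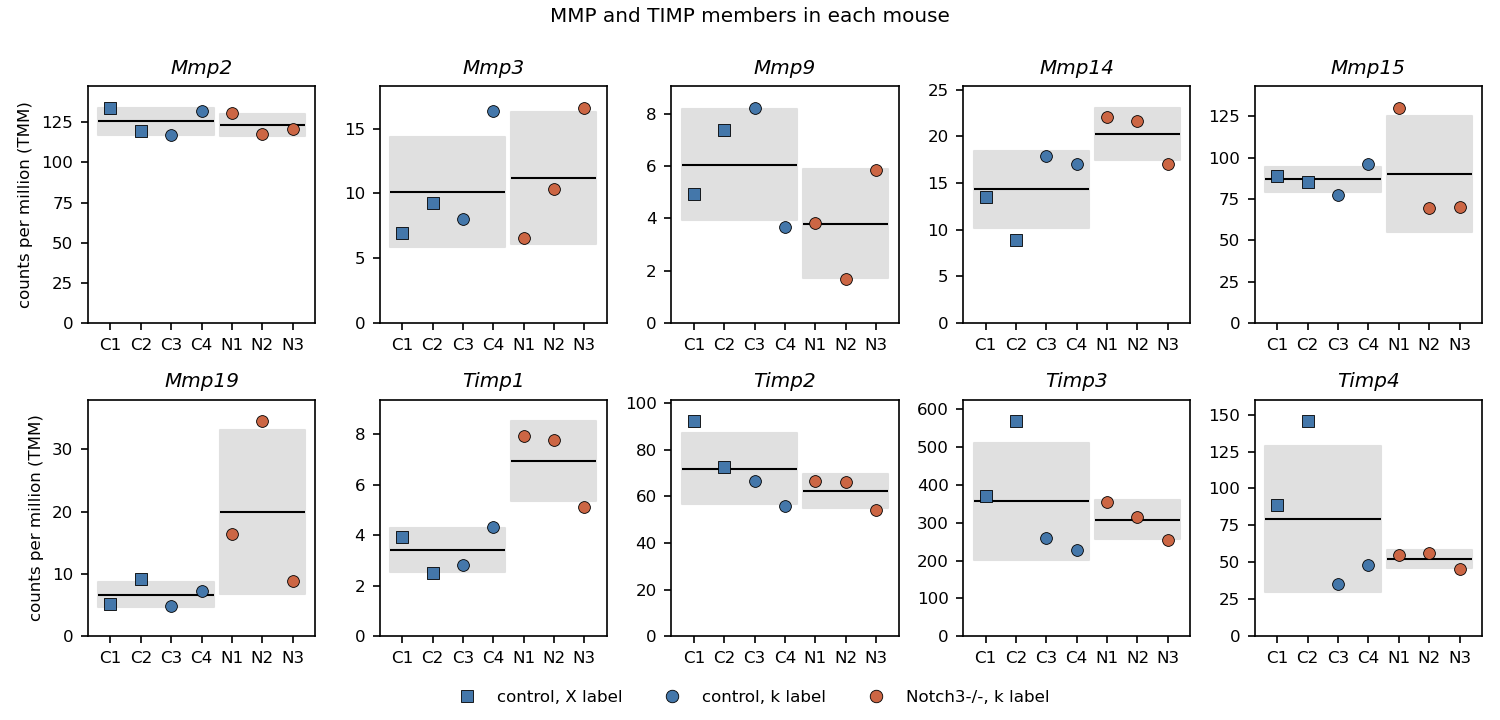
Level of each member in control mice 1 to 4 (C1 to C4) and Notch3-/- mice 1 to 3 (N1 to N3), in CPM from 0, with the group mean (line) and 1 SD (grey). Timp1 is the member whose groups are separate, and Timp4 is high in the X-labelled control mice, at 88.6 and 146.

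Mmp2 and Mmp9 encode the gelatinases, which cut denatured collagen and basement membrane collagen. Mmp2 (ENSMUSG00000031740; chromosome 8, 92827291 to 92853420, plus strand) was at 134, 119.7, 117 and 132 CPM in control mice 1 to 4 and at 131, 118 and 121 CPM in Notch3-/- mice 1 to 3. It was the steadiest member, and the groups overlapped fully. Its log2 fold change was -0.03 ± 0.12 (SE, adjusted p = 0.957 in edgeR), with a 95% interval for the fold change of 0.811 to 1.18. Mmp9 (ENSMUSG00000017737; chromosome 2, 164940780 to 164955850, plus strand), an enzyme stored in neutrophils and also made by macrophages, was found at 4.94, 7.38, 8.23 and 3.67 CPM in control mice. In Notch3-/- mice 1 to 3 it was at 3.83, 1.68 and 5.86 CPM. The lowest value belonged to Notch3-/- mouse 2, which had 8 counts, and the other 2 Notch3-/- mice lay within the control range. The estimate was a log2 fold change of -0.68 ± 0.46 (SE, adjusted p = 0.642 in edgeR), and its 95% interval was a fold change of 0.304 to 1.27. The log2 fold change was -1.19 without Notch3-/- mouse 3 (unadjusted p = 0.0475, adjusted p = 0.297 in edgeR), -0.33 without Notch3-/- mouse 2, -0.072 without Notch3-/- mice 1 and 2, and 0.067 with the hepatocyte covariate. Of 10 neutrophil genes, Ly6g, Mpo and Camp were at 0 in all mice and the most abundant, S100a8, had 2 to 9 counts per mouse, so neutrophil RNA was close to the limit of detection in both groups.

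Mmp3 (ENSMUSG00000043613; chromosome 9, 7445822 to 7455975, plus strand) encodes stromelysin-1, which cuts proteoglycans and fibronectin and can activate other MMP precursors. It lies in a cluster of 10 MMP genes between 7272514 and 7699585 of chromosome 9. In control mice 1 to 4 its level was 6.92, 9.27, 8.00 and 16.4 CPM, and in Notch3-/- mice 1 to 3 it was 6.56, 10.3 and 16.6 CPM. Control mouse 4 and Notch3-/- mouse 3 stood well above the rest of their groups, and the groups overlapped. This gave a log2 fold change of 0.16 ± 0.39 (SE, adjusted p = 0.922 in edgeR). It had the opposite sign without Notch3-/- mouse 3 (-0.25) and among k-labelled mice only (-0.11), and was larger with the hepatocyte covariate (0.87) and without Notch3-/- mice 1 and 2 (0.73).

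Mmp14 and Mmp15 encode membrane-anchored MMPs, and the Mmp14 protein, together with Timp2, activates the precursor of Mmp2 at the cell surface. Mmp14 (ENSMUSG00000000957; chromosome 14, 54431612 to 54445364, plus strand) was at 13.5, 8.85, 17.9 and 17.0 CPM in control mice 1 to 4. In Notch3-/- mice 1 to 3 it was at 22.1, 21.7 and 17.0 CPM. The X-labelled control mice 1 and 2 were the lowest of all 7 mice, while Notch3-/- mouse 3 lay level with the k-labelled control mouse 4. Its log2 fold change was 0.50 ± 0.27 (SE, adjusted p = 0.553 in edgeR) over all mice and 0.21 among the 5 k-labelled mice. It was 0.32 without control mouse 2, 0.26 without Notch3-/- mice 1 and 2, and 0.91 and 0.15 with technical library 1 or 3 alone. Mmp15 (ENSMUSG00000031790; chromosome 8, 95352268 to 95375080, plus strand) was at 88.9, 85.4, 77.6 and 95.9 CPM in control mice. In Notch3-/- mice 1 to 3 it was at 130.3, 69.6 and 70.3 CPM. Notch3-/- mouse 1 was the highest of all mice and Notch3-/- mice 2 and 3 were the lowest, so the knockout mice stood on both sides of the controls. The log2 fold change was 0.05 ± 0.22 (SE, adjusted p = 0.963 in edgeR), and without Notch3-/- mouse 1 it was -0.31.

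Mmp19 encodes a secreted MMP that cuts basement membrane proteins, and it had the largest fold change of the members. The gene (ENSMUSG00000025355; chromosome 10, 128790910 to 128800824, plus strand) had 16, 44, 21 and 22 counts in control mice 1 to 4, against 60, 164 and 47 in Notch3-/- mice 1 to 3. As CPM these were 5.27, 9.27, 4.94 and 7.35 for the controls and 16.4, 34.5 and 8.89 for the Notch3-/- mice. Notch3-/- mice 1 and 2 were above all control mice, whereas Notch3-/- mouse 3 lay just below control mouse 2. In single libraries Notch3-/- mouse 2 ranged from 29.1 to 37.8 CPM and Notch3-/- mouse 1 from 11.5 to 19.8 CPM, and 5 of 9 Notch3-/- libraries exceeded all 12 control libraries. Over all mice the log2 fold change was 1.56 ± 0.44 (SE, adjusted p = 0.244 in edgeR), with a 95% interval for the fold change of 1.48 to 5.85. It passed the threshold in DESeq2 (log2 fold change 1.55), as given above, and in edgeR without Notch3-/- mouse 3 (1.91), where 936 of 15008 genes (6.24%) did. Without Notch3-/- mouse 2 it was 0.89 (adjusted p = 0.74 in edgeR).

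The level of Mmp19 moved with a list of 29 hepatocyte genes. The summed level of that list was 204, 359, 129 and 138 CPM in control mice 1 to 4, against 10514, 19912 and 332 CPM in Notch3-/- mice 1 to 3. All 27 of its genes that were tested had an unadjusted p under 0.05 and were higher in Notch3-/- mice. Alb, the most abundant, had 68, 385, 10 and 32 counts in the controls, against 6240, 8913 and 354 in Notch3-/- mice, and no gene of the list was at 0 in a Notch3-/- mouse. The mice with the most hepatocyte RNA, Notch3-/- mice 2 and 1, were also those with the most Mmp19. Without these 2 mice, in a fit that assumes that the remaining Notch3-/- mouse varies like the controls, the log2 fold change of Mmp19 was 0.40. With the mean hepatocyte level as a covariate it was -0.04 ± 0.48 (SE). The genes of this covariate were themselves higher in Notch3-/- mice, so a fit with it separates liver RNA from genotype only in part. This holds for every member, and the SE of Mmp2, for example, was 0.22 with the covariate against 0.12 without it. A list of hepatic stellate and sinusoidal cell genes was also highest in Notch3-/- mice 2 and 1. Its sum was 197, 314 and 123 CPM in Notch3-/- mice 1 to 3 and 86.1 to 119.5 CPM in control mice. The most abundant gene, Ecm1, had 235 to 431 counts per control mouse and 417, 786 and 554 in Notch3-/- mice. Ecm1 was thus present in hearts with little hepatocyte RNA, and only 3 genes of the list were tested. How much of the Mmp19 signal came from liver RNA was not tested. The gene also shares 22.3% of its exon bases with Tmem198b on the opposite strand, and reads of the pair may not have been separated. Tmem198b had 34 to 107 counts in the controls and 80 to 113 in Notch3-/- mice.

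**Figure D3:**
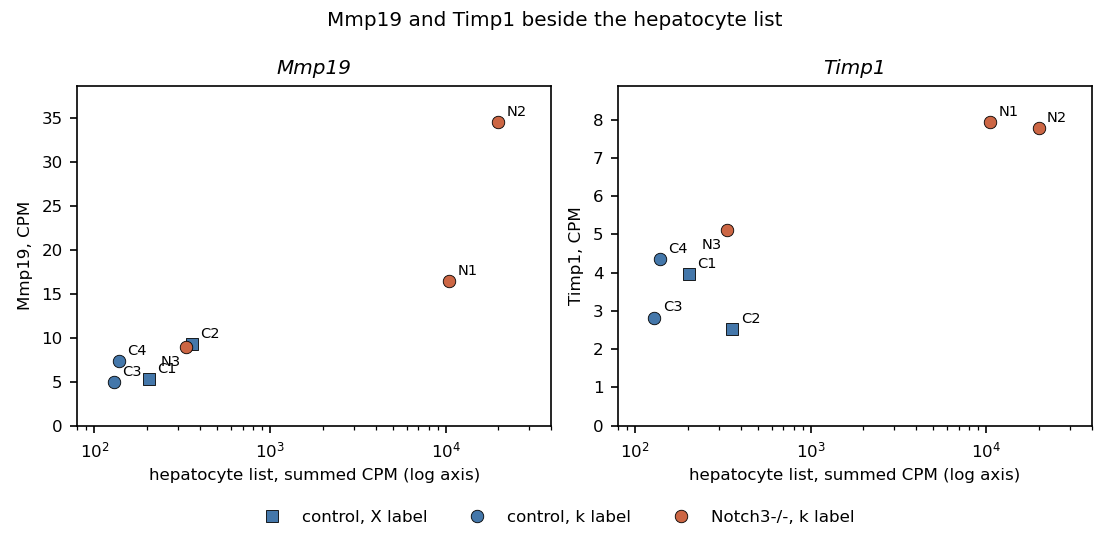
Level of Mmp19 (left) and Timp1 (right) in CPM against the summed level of 29 hepatocyte genes on a log axis, 1 point per mouse. Notch3-/- mice 1 and 2 (N1, N2), at 10514 and 19912 on the hepatocyte axis, are the highest for both genes.

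Timp1 encodes a secreted inhibitor that is known to be induced in injured and inflamed tissue, and it was the member whose groups did not overlap. The gene (ENSMUSG00000001131; chromosome X, 20870166 to 20874735, plus strand) had 12, 12, 12 and 13 counts in control mice 1 to 4, against 29, 37 and 27 in Notch3-/- mice 1 to 3. As CPM these were 3.95, 2.53, 2.82 and 4.34 for the controls and 7.93, 7.78 and 5.11 for the Notch3-/- mice. Notch3-/- mouse 3 was nearest to the controls. The genotypes differed by a log2 fold change of 1.04 ± 0.34 (SE, adjusted p = 0.323 in edgeR), with a 95% interval for the fold change of 1.21 to 3.48, and Timp1 was higher in 3 of 3 Notch3-/- mice. Leaving out each mouse in turn gave log2 fold changes of 0.90 to 1.21, and among k-labelled mice the value was 0.95. It was 0.60 without Notch3-/- mice 1 and 2 and 0.61 with the hepatocyte covariate. The part of liver RNA in the difference was not tested. Depth limited this gene: a single library held 1 to 18 counts, and the 9 Notch3-/- libraries ranged from 1.65 to 18.8 CPM against 1.08 to 7.13 CPM in the 12 control libraries, with 4 of 9 above all control libraries. Timp1 lies within the gene Syn1, on the opposite strand, but the exons of the genes do not overlap.

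The other 3 inhibitors were highest in the 2 X-labelled control mice. Timp2, the partner of Mmp14 in the activation of Mmp2, lies on chromosome 11 (ENSMUSG00000017466; 118301069 to 118355740, minus strand). It was at 92.2, 72.7, 66.6 and 55.8 CPM in control mice 1 to 4 and at 66.4, 66.3 and 54.1 CPM in Notch3-/- mice 1 to 3. The X-labelled mice 1 and 2 were highest, and all 5 k-labelled mice lay between 54.1 and 66.6 CPM. The log2 fold change was -0.21 ± 0.18 (SE, adjusted p = 0.738 in edgeR) over all mice, 0.02 among the k-labelled mice, -0.50 with the hepatocyte covariate and -0.41 without Notch3-/- mice 1 and 2.

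Timp3, an inhibitor that stays bound to the extracellular matrix, showed a wider spread. The gene (ENSMUSG00000020044; chromosome 10, 86300372 to 86349506, plus strand) was at 369.8, 568, 258 and 228 CPM in control mice 1 to 4 and at 356, 314 and 255 CPM in Notch3-/- mice 1 to 3. Control mice 1 and 2 were the highest again, and the k-labelled mice of both genotypes overlapped. The log2 fold change of -0.21 ± 0.28 (SE, adjusted p = 0.848 in edgeR) became 0.33 among the k-labelled mice, and 0.10 once control mouse 2 was left out. It was further below 0 with the hepatocyte covariate (-0.82) and without Notch3-/- mice 1 and 2 (-0.49). Timp3 lies within the gene Syn3 on the opposite strand, and 21.3% of its exon bases are also exon bases of Syn3. Syn3 had 311, 802, 303 and 161 counts in the controls, against 387, 399 and 395 in Notch3-/- mice, and these ran closely with those of Timp3. Whether these counts are reads of Timp3 cannot be told from the deposited counts.

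Timp4, the TIMP best known from heart muscle, split the mice by label most widely. The gene (ENSMUSG00000030317; chromosome 6, 115241892 to 115252205, minus strand) was at 88.6 and 146 CPM in the X-labelled control mice 1 and 2 and at 35.5 and 48.4 CPM in the k-labelled control mice 3 and 4. Notch3-/- mice 1 to 3 had 55.2, 56.4 and 45.6 CPM, close to each other. The technical libraries showed the same split: those of control mouse 2 ranged from 135 to 149.8 CPM and those of control mouse 1 from 79.0 to 92.9 CPM, above the 31.8 to 62.5 CPM of all 15 libraries from k-labelled mice. The log2 fold change was -0.61 ± 0.41 (SE, adjusted p = 0.644 in edgeR) over all mice, -0.14 without control mouse 2, -0.87 without control mouse 3, -1.28 with the hepatocyte covariate, and 0.32 among the k-labelled mice. Timp4 lies within Syn2 on the opposite strand and shares 1.53% of its exon bases with it.

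Together, 3 of 10 members (Timp2, Timp3 and Timp4) were higher in both X-labelled mice than in all k-labelled mice, a pattern of 5.1% of genes tested, and 1 of 10 (Mmp14) was lower, a pattern of 5.38%. What the first letter of a label stands for is not given in the sources used here. A list of 10 mesothelial genes, which mark the outer lining of heart and other organs, also split by label. Its summed level was 26.3 and 27.8 CPM in the X-labelled mice, 76.0 and 69.5 CPM in control mice 3 and 4, and 89.6, 224 and 143 CPM in Notch3-/- mice 1 to 3. Its most abundant gene was Krt8, which liver also expresses, with 0 to 6 counts per control mouse and 137, 834 and 24 in Notch3-/- mice; 3 of the 10 genes were at 0 in each X-labelled mouse. The part of this tissue in the TIMP values was not tested.

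**Figure D4:**
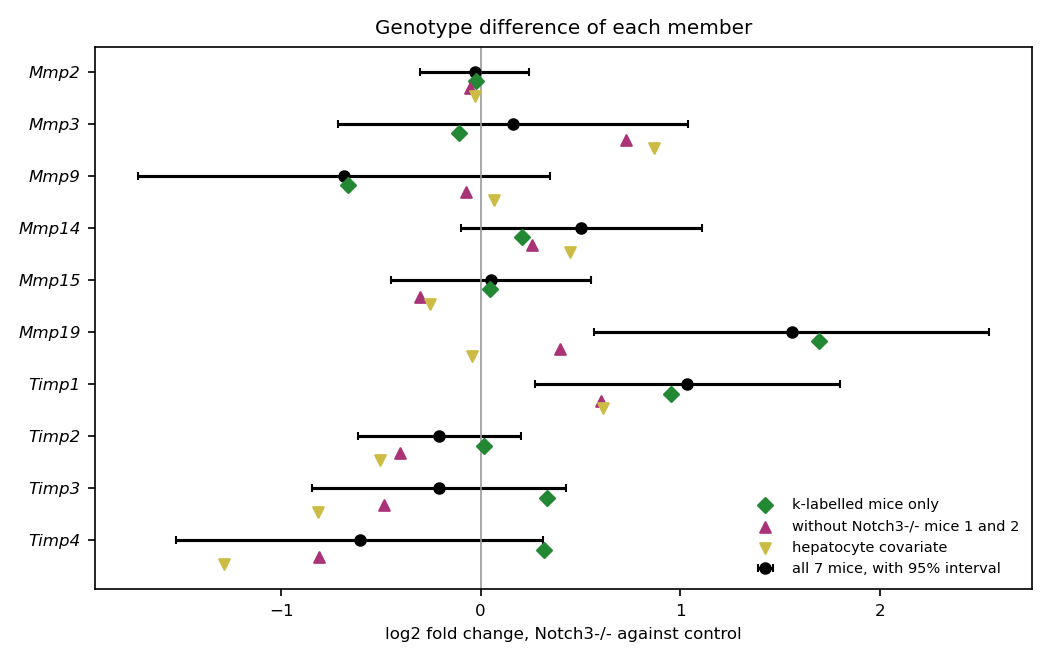
Log2 fold change of each member, Notch3-/- against control, over all 7 mice with its 95% interval (black), and under 3 alternatives (coloured symbols). Timp3 and Timp4 move from -0.21 and -0.61 to 0.33 and 0.32 among k-labelled mice, and Mmp19 from 1.56 to -0.04 with the hepatocyte covariate.

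The sums of the levels per length give the balance of the members' RNAs, with no claim on active protein. The 4 TIMP genes together were at 88.6, 116, 58.0 and 55.5 CPM per kb in control mice 1 to 4 and at 79.0, 73.9 and 58.6 in Notch3-/- mice 1 to 3. The 6 MMP genes together were at 65.2, 62.7, 60.2 and 72.0 CPM per kb in control mice and at 76.0, 67.4 and 65.2 in Notch3-/- mice. The MMP sum varied little, and Mmp2 made up the larger part of it in each mouse. The ratio of the TIMP to the MMP sum was 1.36, 1.85, 0.963 and 0.771 in the controls, against 1.04, 1.098 and 0.899 in Notch3-/- mice. The X-labelled mice had the highest ratios, and all Notch3-/- ratios lay within the range of the control mice. The size of the ratios, and whether they lie above 1, depends on the genes summed and on the length used. MMP genes outside the members were left out, among them Mmp23, Mmp24 and Mmp11. Their means over all mice were 9.02, 6.585 and 5.01 CPM per kb. With the longest transcript the mean of Timp3 was 71.1 instead of 41.2 CPM per kb, and that of Mmp2 40.5 instead of 36.9. Ratios on that length, or with the other MMP genes, were not computed.

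Upstream sequences were found for 7 of the 10 members in a RefSeq table (build GRCm38.p6). The 250 bases before the start are printed for Timp1, whose groups were separate, and for Timp4 and Mmp14, which split the mice by label in opposite directions. Capitals mark the motifs searched on both strands, which were the GC box GGGCGG, the AP-1 site TGAGTCA, the TATA box (TATAAA) and the letters TGGGAA, the core read by the DNA-binding partner of Notch receptors. Timp1 was taken from chrX:20869916-20870165 on the plus strand, Timp4 from chr6:115252206-115252455 on the minus strand and Mmp14 from chr14:54431348-54431597 on the plus strand.
Timp1: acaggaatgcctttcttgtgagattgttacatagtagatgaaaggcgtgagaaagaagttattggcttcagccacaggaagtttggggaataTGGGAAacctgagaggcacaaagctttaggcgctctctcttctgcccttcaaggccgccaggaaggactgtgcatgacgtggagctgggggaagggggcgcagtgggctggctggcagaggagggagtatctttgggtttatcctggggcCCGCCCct
Timp4: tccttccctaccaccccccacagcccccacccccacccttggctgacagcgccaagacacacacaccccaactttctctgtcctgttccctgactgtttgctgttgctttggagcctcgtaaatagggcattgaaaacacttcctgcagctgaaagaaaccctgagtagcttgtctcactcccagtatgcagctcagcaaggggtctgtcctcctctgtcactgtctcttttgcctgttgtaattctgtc
Mmp14: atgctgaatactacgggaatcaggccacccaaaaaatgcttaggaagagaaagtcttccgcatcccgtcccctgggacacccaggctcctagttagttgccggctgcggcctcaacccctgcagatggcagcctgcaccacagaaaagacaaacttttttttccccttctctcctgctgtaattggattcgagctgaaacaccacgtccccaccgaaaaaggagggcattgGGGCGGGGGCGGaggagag
Timp1 held TGGGAA with its first base 158 bases before the start, which occurred in 21.6% of all 32851 windows of this length and in 1 of the 7 members. The GC box was present in 5 of 7 (Mmp14, Mmp15, Timp1, Timp2 and Timp3) and in 32.7% of all windows. TGAGTCA was present in Mmp3 only among the 7, 46 bases before the start, and in 4.46% of all windows. TATAAA was likewise found in Mmp3 only, 7 bases before the start, against 12.4% of all windows. The Timp4 window held none of the 4 motifs. These matches describe the letters and not the binding of a factor.

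The rest of the MMP system was read from 6 lists in the same fit, and no gene of them was called. At an unadjusted p under 0.05, the threshold used for their counts, 7.34% of all genes tested were higher and 3.05% lower in Notch3-/- mice. Of 17 other MMP genes, 6 passed the expression filter, and 0 of these had an unadjusted p under 0.05. This count was 0 to 3 over the alternatives, with 3 without Notch3-/- mouse 3. Their median log2 fold change was -0.35, with 2 higher and 4 lower, but 0.087 with the hepatocyte covariate and 0.076 without Notch3-/- mice 1 and 2. The most abundant per length were Mmp23, with a log2 fold change of -0.43 ± 0.22 (SE, adjusted p = 0.538 in edgeR), and Mmp24, with -0.36 ± 0.19 (SE, adjusted p = 0.539 in edgeR). Another 6 (Mmp1a, Mmp1b, Mmp7, Mmp8, Mmp10 and Mmp20, named after their values were seen) had 0 counts in all mice. At 29068150 counts in all, 0 allows up to 3 counts or 0.103 CPM, for counting error only. The interstitial collagenase genes of this family were thus at or near 0 in these hearts, apart from Mmp13 with 1 to 16 counts per mouse.

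The ADAM genes, membrane-bound relatives that release cell surface proteins, had 9 of 10 members tested, with a median log2 fold change of 0.15. This median stayed above 0 in the alternatives, but was 0.027 and 0.37 with technical library 1 or 2 alone and 0.063 without Notch3-/- mouse 2. At an unadjusted p under 0.05 there were 0, and 1 without Notch3-/- mouse 3, without control mouse 4 and in limma-voom on 21 libraries. Adam15 (0.15 ± 0.13, SE) and Adam9 (0.16 ± 0.14, SE), the most abundant, differed by little more than their error. Of 19 ADAMTS genes, which cut proteoglycans and process procollagens, 12 were tested, with a median of 0.16. This median changed sign in 5 alternatives, at -0.095 in DESeq2, -0.082 with every gene of at least 1 count, -0.14 with technical library 1 alone, -0.064 without Notch3-/- mice 1 and 2, and -0.033 without Notch3-/- mouse 1. The procollagen-processing enzyme Adamts14 alone passed an unadjusted p of 0.05, but the count of 1 was not steady: it was 3 without control mouse 1, 2 among k-labelled mice and 0 without Notch3-/- mouse 3. It was at 5.93, 4.00, 2.59 and 5.01 CPM in control mice and at 1.09, 2.52 and 1.14 CPM in Notch3-/- mice. All 3 Notch3-/- mice were below the controls, though by little in mouse 2, and the log2 fold change was -1.42 ± 0.47 (SE, adjusted p = 0.325 in edgeR).

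Among the activators of MMPs, 7 of 9 genes were tested, with a median of 0.19 and 1 with an unadjusted p under 0.05, Pcsk5. This proprotein convertase was at 4.94, 6.11, 5.41 and 4.01 CPM in control mice and at 9.29, 15.6 and 5.11 CPM in Notch3-/- mice (log2 fold change 0.95 ± 0.39, SE, adjusted p = 0.445 in edgeR). Like Mmp19 it was high in the mice with the most hepatocyte RNA and within the control range in Notch3-/- mouse 3. The count of 1 was 4 without Notch3-/- mouse 3, and 0 without Notch3-/- mouse 2 and in limma-voom on 7 mice. The median of this list was -0.10 without Notch3-/- mice 1 and 2, -0.31 with the hepatocyte covariate, -0.17 and -0.036 with technical library 2 or 1 alone, and 0.0057 in limma-voom on 21 libraries. It was higher without control mouse 4 (0.33), without Notch3-/- mouse 3 (0.31), among k-labelled mice (0.30) and without Notch3-/- mouse 1 (0.29). Plasminogen, a liver product that opens MMP precursors once cleaved, did not pass the filter. Its gene Plg, named after its values were seen, had 2, 11, 0 and 1 counts in the controls, against 867, 3390 and 8 in Notch3-/- mice. Klkb1 was not analysed here.

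Of 12 other inhibitors and clearance genes, 10 were tested, with a median of 0.14 and 3 with an unadjusted p under 0.05, a count that was 0 to 7 over the alternatives. The sign of the median differed between alternatives: it was -0.42 with the hepatocyte covariate, -0.21 without Notch3-/- mice 1 and 2, -0.048 with at least 10 counts required in every mouse, and -0.010 without Notch3-/- mouse 2. In the other direction it was 0.53 without Notch3-/- mouse 1, 0.51 among k-labelled mice and 0.42 with technical library 1 alone. Pzp, a broad protease inhibitor made by liver, was at 1.88 to 12.2 CPM in control mice and at 365, 1401 and 14.9 CPM in Notch3-/- mice (log2 fold change 6.69 ± 1.24, SE, adjusted p = 0.118 in edgeR). Tfpi2, an inhibitor of plasmin, was at 1.41 to 2.63 CPM in control mice and at 13.4, 42.7 and 2.65 CPM in Notch3-/- mice (3.18 ± 0.77, SE, adjusted p = 0.17 in edgeR). Both were thus highest in Notch3-/- mice 2 and 1, as the hepatocyte list was, and Notch3-/- mouse 3 lay barely above the controls for both. Thbs2, a matrix protein that binds Mmp2 for uptake into cells, went the other way. It was at 136, 114, 88.0 and 118 CPM in control mice and at 65.0, 77.0 and 79.0 CPM in Notch3-/- mice, with no overlap (-0.63 ± 0.17, SE, adjusted p = 0.212 in edgeR).

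All 14 matrix substrates were tested, with a median log2 fold change of 0.24. Of these, 5 genes were higher and 1 lower at an unadjusted p under 0.05, against 7.34% and 3.05% of all genes tested; that count of 6 was 3 among k-labelled mice and 2 with technical library 1 alone. Col3a1, a fibrillar collagen, was at 295, 206, 248 and 284 CPM in control mice and at 360.4, 453 and 526 CPM in Notch3-/- mice. Its groups were separate, and the log2 fold change was 0.79 ± 0.16 (SE, adjusted p = 0.126 in edgeR). Col1a1 (0.62 ± 0.16, SE, adjusted p = 0.2 in edgeR) and the basement membrane collagen Col4a1 (0.52 ± 0.16, SE, adjusted p = 0.28 in edgeR) were also separate, and Col1a2 overlapped (0.41 ± 0.17, SE, adjusted p = 0.437 in edgeR). Col4a1 also split by label, at 261 and 254 CPM in the X-labelled mice and at 355 to 492 CPM in the k-labelled mice. These 4 collagen genes were highest in Notch3-/- mouse 3, the knockout mouse with little hepatocyte RNA. Fn1, which encodes fibronectin, a matrix and plasma protein also made by liver, was at 33.4 to 68.8 CPM in control mice and at 230.1, 544 and 49.0 CPM in Notch3-/- mice. Its fold change (2.38 ± 0.61, SE, adjusted p = 0.195 in edgeR) thus rested on mice 1 and 2. Dcn, a small proteoglycan of fibroblasts, was at 582, 508, 494 and 456 CPM in control mice and at 431, 395 and 452 CPM in Notch3-/- mice, all below the controls (-0.26 ± 0.11, SE, adjusted p = 0.476 in edgeR).

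**Figure D5:**
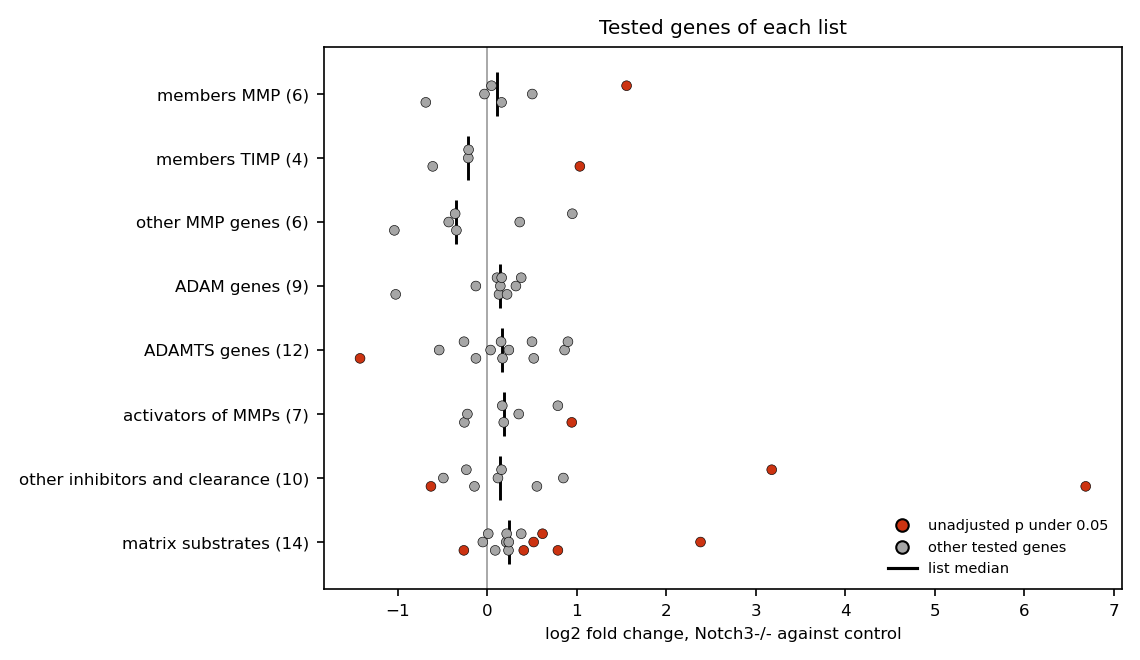
Log2 fold change of the tested genes of each list, Notch3-/- against control, with the number of tested genes in brackets, the list median as a line and genes with an unadjusted p under 0.05 in red. The median of the matrix substrates is 0.24 and that of the other MMP genes -0.35.

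Marker lists of the cell types of heart tissue were read in the same way. The fibroblast list, which shares Dcn, Col1a1, Col1a2 and Col3a1 with the substrates, summed to 2392 to 3075 CPM in control mice and 2534 to 2792 CPM in Notch3-/- mice; its most abundant gene was Gsn. The macrophage list, led by Lyz2, summed to 514 to 625 and 570.0 to 660.3 CPM. Endothelial genes, led by Eng, summed to 1286 to 1916 and 1724 to 1814 CPM. The groups overlapped in each of these lists. At an unadjusted p under 0.05, which 7.34% of all genes tested passed as higher and 3.05% as lower, the fibroblast list had 3 of 10 genes higher and 1 lower, the same 4 genes that it shares with the substrates, the macrophage list 1 of 10 higher and the endothelial list 0 of 10. Vascular smooth muscle genes, led by Des, which cardiomyocytes also express, summed to 2201 to 2651 CPM in control and 1804 to 2420 CPM in Notch3-/- mice, and 2 of 8 tested genes were lower at that threshold. The pericyte list, which contains Notch3 and was led by Rgs5, summed to 1263 to 1420 CPM in control and 1053 to 1202 CPM in Notch3-/- mice, which did not overlap, and 3 of 9 genes were lower at that threshold, Notch3 being among them. Adipocyte genes, led by Fabp4, which capillary endothelium of the heart also expresses, summed to 385 to 484 CPM in control and 330.1 to 381 CPM in Notch3-/- mice. These did not overlap either, but Notch3-/- mouse 3 (381 CPM) lay close to control mouse 4 (385 CPM), and 0 of 3 tested genes passed that threshold. With up to 6 of the 10 genes at 0 in a mouse, this sum was not shown to concern adipocytes. Cardiomyocyte genes were led by Actc1, and 0 of 10 passed it.

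Genes whose levels ran most closely with a member were found by Pearson's r of log2 CPM over the 7 mice, among 10728 tested genes with a mean of at least 10 CPM. For Mmp2 they were Usp53 (r = 0.96), Hectd4 (0.96) and Dlst (0.96), over the narrow range that this gene covers. For Timp3 they were Syn3 (0.98), the gene that overlaps it, Sltm (0.97) and Fbxw2 (0.97). For Mmp19 they included Arpc5 (0.99) and Col18a1 (0.99), and for Timp1 they were Tada1 (0.98), Ap3d1 (0.97) and Rev3l (0.97). With 7 mice and this many genes, values of this size are found by selection, and they are given as a description.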

How the data were processed

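RNA of left ventricle tissue was reverse transcribed, amplified by PCR, fragmented with Tn5 and sequenced, without molecular identifiers. The authors deposited counts, whole numbers of reads per Ensembl gene in 21 libraries, without normalization. The submitters' processing notes name mm10 and CASAVA; aligner, counter and strand were not given in the sources used here. The 92 spike-in lines (34 counts in all) were left out.

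The 3 technical libraries of a mouse were summed. Symbols, positions and exon lengths came from GENCODE M21 (GRCm38). Genotypes were compared in R 4.3.3 with edgeR 4.0.16 (filterByExpr, TMM, quasi-likelihood F-test, Benjamini-Hochberg over all genes tested), at an FDR under 0.05 and a fold change of at least 1.5. Alternatives used DESeq2 1.42.0, limma 3.58.1, other scalings and filters, subsets of mice or libraries, a hepatocyte covariate and thinned counts. The edgeR, DESeq2 and limma-voom fits were tested on simulated counts, with the same fold change in all Notch3-/- mice. Liver RNA in some mice only and the split by label were not simulated. The members and lists were chosen with earlier results of these data known. Named genes are the members, Notch3, list genes with an unadjusted p under 0.05 or else the 2 most abundant per length, the 3 genes most like Mmp2, Timp3, Mmp19 and Timp1, and each marker list's most abundant gene and genes at 0; 1 gene that this rule names is not reported here. Log2 CPM used a prior count of 2.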

Additional observations from a re-analysis of the deposited data

How the results depend on the processing

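Each member's log2 fold change was refitted under 22 alternatives, which gave 209 values; 2 passed the FDR threshold and 21 changed sign. Where no construction of the alternative is named, the cause was not tested. The count of called genes was 593 in DESeq2, 639 with every gene of at least 1 count, 0 with the hepatocyte covariate, 0 among k-labelled mice, 65 in limma-voom on the 21 libraries, and 48, 39 and 77 with technical library 1, 2 or 3 alone; leaving out each mouse gave 1 to 936 genes, with 936 without Notch3-/- mouse 3. The count of called members was 1 in DESeq2, and 0 to 1 when each mouse was left out (Mmp19 without Notch3-/- mouse 3). The count of members with an unadjusted p under 0.05 was 1 among k-labelled mice, 1 with technical library 2 or 3 alone, 0 without Notch3-/- mice 1 and 2, and 2 to 3 when each mouse was left out, with Mmp9 added without Notch3-/- mouse 3 and Timp4 without control mouse 3. In limma-voom on 21 libraries and with technical library 1 alone it was 2, Mmp14 and Mmp19, and Timp1 was not tested there. With the hepatocyte covariate, which itself differed by genotype, it was 2. These were Timp3 (log2 fold change -0.82 ± 0.37, SE) and Timp4 (-1.28 ± 0.54, SE). The fold change of Notch3 kept its direction in all alternatives and missed the FDR threshold with the hepatocyte covariate (-3.39) and among k-labelled mice (-3.29), where fewer mice entered.

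Sign changes were as follows, as log2 fold changes. Among k-labelled mice Mmp3 was at -0.11, Timp2 at 0.018, Timp3 at 0.33 and Timp4 at 0.32. With the hepatocyte covariate Mmp9 was at 0.067, Mmp15 at -0.26 and Mmp19 at -0.041. Mmp15 was also at -0.041 in limma-voom on 21 libraries, -0.029 on 7 mice and -0.30 without Notch3-/- mice 1 and 2. With technical library 1 alone Mmp2 was at 0.014 and Mmp15 at -0.32, with library 2 alone Mmp3 at -0.10, and with library 3 alone Timp2 at 0.066. Leaving out each mouse gave -0.074 to 0.0025 for Mmp2, -0.25 to 0.47 for Mmp3, -0.31 to 0.20 for Mmp15 and -0.37 to 0.10 for Timp3. Timp1 and Mmp14 kept their sign in every alternative that fitted them, and RLE factors or TMM factors without the hepatocyte genes changed no member's sign. Of 132 medians of the 6 other lists, 117 kept their sign and 24 moved by more than 1 SD over control mice; that of the matrix substrates stayed above 0, at 0.02 to 0.48. Timp1 and Mmp9 did not pass the filter in the fits of single libraries, nor Mmp9 that of 10 counts in every mouse.

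The technical numbers 1 to 3 recur in every mouse but do not pair the mice. Deviations of libraries with the same number had a median correlation of -0.013 over 63 pairs, and 4 of 21 libraries correlated best with their own number. With the technical number as a block, limma-voom called 62 genes and 0 members and gave Mmp15 a log2 fold change of -0.038. Depth limits Mmp9 and Timp1 most, at 8 to 35 and 12 to 37 counts per mouse.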
